A study of Arabidopsis thaliana with 9 samples.

Results

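The nuclear photosynthesis genes described here are 46 of the 23338 loci in the deposited count table of Arabidopsis thaliana shoot apical meristems. They were chosen by locus identifier for what they encode. The rule uses no measured value, but earlier results of these data were known when it was set. They comprise 4 LHCA genes, 12 LHCB genes, 11 PSA genes, 10 PSB genes, 4 RBCS genes, RCA, and 4 genes of electron carriers, namely PETE1, PETE2, PETC and FD2.

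In the chloroplast, light-harvesting proteins bind chlorophyll and pass excitation to the reaction centres of photosystems I and II, and small carriers move electrons between and beyond the photosystems. Rubisco then fixes carbon dioxide with the energy and reducing power so made. Both photosystems and Rubisco are built from plastid-encoded and nuclear-encoded subunits. The nuclear genes are known for strong expression in green leaf tissue and for responses to light, while plastids of the shoot apical meristem are small and only partly differentiated.

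The meristems came from accession Col-0 and were taken by laser dissection. All plants were raised in short days (8 h light, 16 h dark), and the groups LD0, LD1 and LD3 differ in the number of long days (16 h light, 8 h dark) that followed, which was 0, 1 or 3. Each of these 3 groups had 3 libraries, A and B by whole-transcriptome shotgun and C as a ready-to-run library, so each group holds both preparations. RNA was amplified, and the labels do not state the number of plants or whether libraries came from separate pools, so p-values reflect library-to-library spread that may be purely technical. In such bulk samples fewer cells of a type and less RNA per cell cannot be told apart.

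Libraries held from 97153 to 11145220 reads assigned to loci, and the deepest was LD3 C. Library C was the deepest of each group, but LD1 B and LD1 C were close, at 711363 and 714559 reads. Depth and the number of detected loci did not go together. LD3 C had reads on 15587 loci, against 17340 in LD3 B and 16900 in LD0 C. LD1 C had reads on 9909 loci, against 15315 in LD1 B. Together the meristem markers STM, KNAT1, CLV1, CLV3, WUS and ATML1 held between 0.0351% and 0.0941% of reads, and no library lacked them. Trichome and stomata markers were at 0 in 7 libraries and reached 0.000274% at LD0 C. Seed storage and oil body genes took 6.68%, 1.57% and 6.29% of reads at LD0. In LD3 the same genes took 0.334%, 0.301% and 0.0663%, below every LD0 library, and their part in the results below was not tested.

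Near-identical copies mattered for how single genes could be read. Coding sequences of LHCB1.1, LHCB1.2 and LHCB1.3, which encode the main antenna protein of photosystem II, were at least 95.6% identical in pairs. The LHCB1 genes as a whole ranged from 87.4% to 96.4%, and the RBCS genes, which encode the small subunit of Rubisco, from 90.4% to 97.3%. The stretches shown here are coding bases 301 to 390, counted from 1 at the first base of the start codon, with capitals at the positions that differ within each set. They come from RefSeq on TAIR10.1 and show how little sequence separates the copies.
LHCB1.1: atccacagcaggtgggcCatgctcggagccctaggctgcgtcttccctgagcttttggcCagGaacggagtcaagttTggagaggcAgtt
LHCB1.2: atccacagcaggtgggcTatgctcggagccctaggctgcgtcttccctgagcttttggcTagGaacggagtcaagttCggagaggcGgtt
LHCB1.3: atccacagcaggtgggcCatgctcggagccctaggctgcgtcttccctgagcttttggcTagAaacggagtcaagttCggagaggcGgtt
RBCS1B: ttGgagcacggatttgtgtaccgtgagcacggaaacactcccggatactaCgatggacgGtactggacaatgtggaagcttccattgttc
RBCS2B: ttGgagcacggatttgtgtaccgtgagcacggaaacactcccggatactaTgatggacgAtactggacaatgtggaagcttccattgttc
RBCS3B: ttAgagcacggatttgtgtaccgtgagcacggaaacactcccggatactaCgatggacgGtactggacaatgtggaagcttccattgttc

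The LHCB1 window held 5 differing positions in 90 bases and the RBCS window 3. RBCS1B and RBCS3B shared an identical run of 233 bases. The sources used here do not say how the authors assigned reads with several matches, so values of single LHCB1, LHCB2 and RBCS genes are uncertain, and sums over each family are given beside single genes. Other pairs were further apart, with 83.8% identity between PSBO1 and PSBO2, 81.9% between LHCB4.1 and LHCB4.2 and 80.0% between PSBQ1 and PSBQ2.

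Every one of the 46 genes had at least 1 read in the series, and 30 had reads in all 9 libraries. Between 35 genes in LD0 B and all 46 at LD0 C and LD3 B were detected in a library. Pooled reads per gene ran from 39 for RBCS2B to 28907 for PSBP1, a protein of the oxygen-evolving complex of photosystem II. The filter on low counts, which asks for enough scaled reads in enough libraries, kept 41 of the genes for the test. The other 5, namely LHCB1.4, PSAH-1, PSBO2, RBCS2B and PETE1, had 39 to 483 pooled reads. Pooled reads alone did not decide this, as LHCB2.1 was tested with 80.

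Values of a group are listed in the order A, B, C throughout. Together the genes took 0.343%, 0.387% and 0.637% of all reads at LD0. In LD1 the shares were 0.809%, 0.332% and 0.903%, and in LD3 they were 0.745%, 0.673% and 0.569%. The means were 0.456% ± 0.158 at LD0, 0.681% ± 0.306 at LD1 and 0.662% ± 0.0886 at LD3 (SD, n = 3), and the 3 groups overlapped in every comparison. Within the shotgun preparation, both LD3 libraries lay above both LD0 libraries, while in preparation C the LD3 value was below that of LD0. Exact 95% binomial intervals, which cover counting error only, ran from 0.309% to 0.3795% at LD0 A and from 0.564% to 0.573% at LD3 C.

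**Figure D1:**
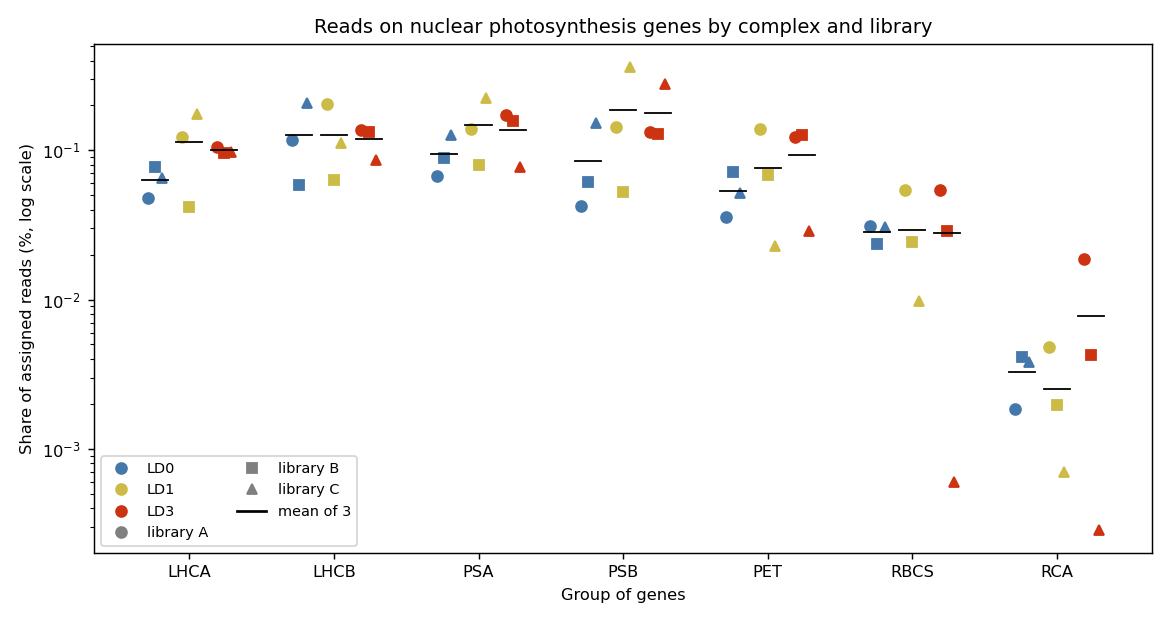
Share of assigned reads (percent, log axis) on each group of photosynthesis genes in each of the 9 libraries, with colour for the number of long days, shape for the library letter and a bar for the mean of 3 libraries. LHCA shares in LD3 sit between 0.0964% and 0.106%, above all LD0 libraries, and the RBCS share of LD3 C falls far below the rest. For LHCA, counting error leaves the order of LD0 B and LD3 B unresolved.

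LHCA genes encode the antenna of photosystem I. Their summed share was 0.0478%, 0.0772% and 0.0655% at LD0 and 0.106%, 0.0964% and 0.0980% at LD3. As observed, all LD3 libraries were above all LD0 libraries. The exact binomial interval of LD0 B, on 75 reads, was 0.0607% to 0.0968% and included the LD3 B share. It also overlapped the LD3 A interval, which began at 0.0868%, so the order of LD0 B and these LD3 libraries is not resolved. The intervals of LD0 A and LD0 C ended at 0.0627% and 0.0690%, below every LD3 interval. In LD1 the LHCA share spread from 0.0416% in B to 0.174% in C and overlapped with both other groups. None of the 4 LHCA genes passed the test. LHCA4 (AT3G47470), the most abundant of them by reads, stood at 179, 209 and 335 CPM (reads per 1000000 of scaled library size) in LD0 A, B and C, at 125, 149 and 979 CPM at LD1 and at 218, 264 and 807 CPM at LD3. Both long-day C libraries were high for LHCA4, and the groups overlapped. LHCA1 (AT3G54890) had 80.7, 38.0 and 116 CPM at LD0, 408, 26.8 and 639 CPM at LD1 and 7.80, 83.1 and 123 CPM at LD3. Its LD1 group held both the highest values and a value below all of LD0. The fitted log2 difference of LHCA1 was +2.07 between LD1 and LD0 (SE 1.03, unadjusted p = 0.0677) and −2.21 between LD3 and LD1 (SE 1.00, unadjusted p = 0.0485, edgeR adjusted p = 0.973). Without LD1 A these were +0.97 and −1.06.

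LHCB genes encode the antenna of photosystem II, with LHCB1, LHCB2 and LHCB3 in the outer trimers and LHCB4, LHCB5 and LHCB6 as the minor antenna proteins. Their summed share overlapped between all groups, with means of 0.127% ± 0.0747, 0.127% ± 0.0715 and 0.119% ± 0.0278 at LD0, LD1 and LD3 (SD, n = 3). The LHCB1 family held 0.0359%, 0.0144% and 0.0908% at LD0, 0.124%, 0.0162% and 0.0785% at LD1 and 0.0559%, 0.0482% and 0.00988% at LD3. In A and B the LHCB1 family was higher in LD3 than in LD0, and in C it was 9.19-fold lower. LHCB3 to LHCB6 together took 0.0794%, 0.0809% and 0.0767% at LD3, above each LD1 library (0.0708%, 0.0460% and 0.0332%) but within the LD0 range of 0.0401% to 0.110%.

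Among single antenna genes, LHCB4.1 (AT5G01530) had 430, 180 and 372 CPM at LD0, 39.5, 228 and 11.1 CPM at LD1 and 203, 160 and 355 CPM at LD3. It was low in LD1 A and C only, and the groups overlapped. Its copy LHCB4.2 (AT3G08940) had 26.9, 0 and 27.7 CPM at LD0, 145, 93.9 and 13.4 CPM at LD1 and 78.0, 92.1 and 64.9 CPM at LD3. As observed, all 3 LD3 libraries of LHCB4.2 were above all LD0 libraries. LHCB4.2 rested on 3 and 0 reads in LD0 A and B and 10 in LD3 A, so the order of LD0 A and LD3 A is not resolved. Its fitted log2 difference was +1.83 (SE 1.11, unadjusted p = 0.128, edgeR adjusted p = 0.758), and +3.10 without LD0 C. LHCB1.3 (AT1G29930) had 8.97, 28.5 and 276 CPM at LD0, 237, 95.6 and 1057 CPM at LD1 and 148, 160 and 51.0 CPM at LD3. It was higher in LD1 than in LD0 for each letter, with a fitted log2 difference of +2.39 (SE 1.00, unadjusted p = 0.0357, edgeR adjusted p = 0.772), which was +3.87 without LD0 C. LHCB2.1 (AT2G05100) had 2, 4 and 34 reads at LD0, 8, 10 and 1 reads at LD1 and 0, 21 and 0 reads at LD3. Scaled to library size, each LD3 library of LHCB2.1 was below each LD0 library, but the 0 reads of LD3 A allow up to 23.4 CPM, more than the 17.9 CPM of LD0 A. The fitted log2 difference of −3.53 had an SE of 1.81 (unadjusted p = 0.0764, edgeR adjusted p = 0.685). That difference was −7.39 without LD3 B, when the other LD3 libraries held no read and the size has no bound, and −1.90 without LD0 C. LHCB2.1 and its copy LHCB2.2, which are 96.6% identical, together took 0.00184%, 0.00412% and 0.00613% of reads at LD0, 0.00965%, 0.00141% and 0.000140% at LD1 and 0.00196%, 0.00285% and 0% at LD3. For this sum the groups overlapped, and LD3 A was slightly above LD0 A.

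PSA genes encode the nuclear subunits of photosystem I. Their share was 0.0671%, 0.0895% and 0.127% at LD0, 0.140%, 0.0800% and 0.223% at LD1 and 0.173%, 0.157% and 0.0778% at LD3, and the groups overlapped. PSAL (AT4G12800), a subunit at the docking site of LHCII, had 26.9, 114 and 443 CPM at LD0, 119, 73.8 and 154 CPM at LD1 and 226, 227 and 257 CPM at LD3. The LD3 libraries of PSAL were the most uniform, at 237 ± 17.4 CPM (SD, n = 3), and all lay above LD1. The fitted log2 difference between LD3 and LD1 was +1.14 (SE 0.76, unadjusted p = 0.162, edgeR adjusted p = 0.973). PSAH-1 (AT3G16140), another subunit near that site, did not pass the filter on low counts. PSAH-1 had 0, 0 and 4 reads at LD0, 1, 2 and 0 at LD1 and 2, 10 and 194 at LD3. Its LD3 values in CPM were above those of both other groups, and its 0 reads in LD0 A and B allow up to 26.9 and 28.5 CPM, more than the LD3 values of 15.6, 6.93 and 21.8 CPM.

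**Figure D2:**
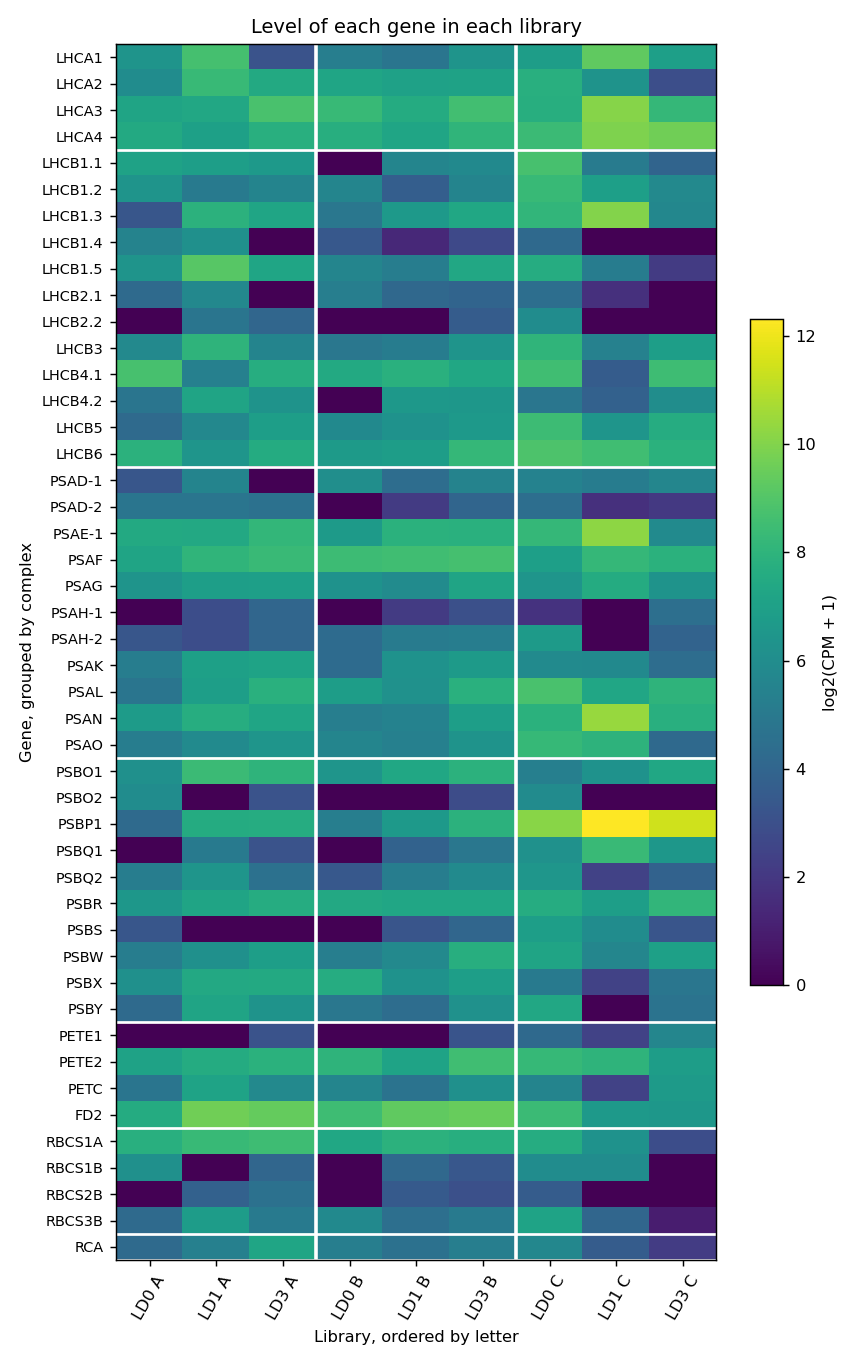
Level of each of the 46 genes in each of the 9 libraries, as log2(CPM + 1) by colour, with genes in rows by complex and libraries in columns by letter. PSBP1 is the brightest row in the 3 C libraries and not in A or B, and LD3 C holds the darkest cell of the LHCB1.5, RBCS1A and RBCS3B rows.

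PSB genes encode nuclear subunits of photosystem II, and PSBO, PSBP and PSBQ proteins form the oxygen-evolving complex on its lumenal side. PSBO1 (AT5G66570), the manganese-stabilising protein, had 71.7, 85.5 and 38.8 CPM at LD0, 336, 163 and 77.9 CPM at LD1 and 257, 244 and 161 CPM at LD3. Every LD3 library was above every LD0 library, and within each letter both long-day values were above LD0. The PSBO1 levels of LD0 A and B rest on 8 and 9 reads, and this order leaves out counting error. The fitted log2 difference of PSBO1 was +1.81 between LD3 and LD0 (SE 0.65, unadjusted p = 0.0174, edgeR adjusted p = 0.560) and +1.46 between LD1 and LD0 (SE 0.65, unadjusted p = 0.0454, edgeR adjusted p = 0.772). Its copy PSBO2 (AT3G50820) had 7, 0 and 97 reads at LD0, no read in LD1 and 1, 9 and 0 reads at LD3. PSBO2 did not pass the filter.

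PSBP1 (AT1G06680) had 2, 4 and 1830 reads at LD0, 29, 59 and 2291 at LD1 and 25, 344 and 24323 at LD3. As levels these were 17.9, 38.0 and 1128 CPM at LD0, 191, 98.9 and 5100 CPM at LD1 and 195, 238 and 2734 CPM at LD3. All C libraries were above all A and B libraries, and within each letter both long-day levels were above LD0, although the groups overlapped across letters. The fitted log2 difference was +2.23 for LD1 against LD0 (SE 0.55, unadjusted p = 0.00168, edgeR adjusted p = 0.772) and +2.39 for LD3 against LD0 (SE 0.56, unadjusted p = 0.00121, edgeR adjusted p = 0.560). PSBQ1 (AT4G21280) had no read in LD0 A and B and 75.2 CPM at LD0 C, then 32.9, 13.4 and 329 CPM at LD1 and 7.80, 28.4 and 90.6 CPM at LD3. Its log2 difference was +2.59 between LD1 and LD0 (SE 1.14, unadjusted p = 0.0437, edgeR adjusted p = 0.772) and +1.98 between LD3 and LD0 (SE 1.2, unadjusted p = 0.126, edgeR adjusted p = 0.757). Both PSBQ1 differences rest on LD0 C, without which they were +8.39 and +7.63 against LD0 libraries with no read, which gives their size no bound, and without LD3 B the LD3 difference was +1.04. The 0 reads in LD0 A and B allow up to 26.9 and 28.5 CPM, above the levels of LD1 B and LD3 A. The limit of LD0 B also lay just above the 28.4 CPM of LD3 B. PSBW (AT2G30570), a small subunit that links photosystem II to its antenna, had 35.9, 38.0 and 144 CPM at LD0, 72.5, 55.3 and 49.0 CPM at LD1 and 117, 213 and 128 CPM at LD3. All LD3 libraries of PSBW were above LD1, with a fitted log2 difference of +1.4 (SE 0.79, unadjusted p = 0.104, edgeR adjusted p = 0.973), which was +0.91 without LD3 B.

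The electron carriers were led by FD2 (AT1G60950), the main leaf ferredoxin, which accepts electrons from photosystem I. It had 188, 361 and 332 CPM at LD0, 804, 644 and 100.2 CPM at LD1 and 679, 689 and 91.3 CPM at LD3. In A and B the long-day levels were above LD0, and in C they were below it. PETC (AT4G03280), the Rieske protein of the cytochrome b6f complex, stood at 26.9, 47.5 and 46.2 CPM at LD0, at 138, 25.1 and 4.45 CPM at LD1 and at 54.6, 72.0 and 104 CPM at LD3. PETC was higher in every LD3 than in every LD0 library, with a log2 difference of +0.95 (SE 1.09, edgeR unadjusted p = 0.404). In LD0 A, LD0 B and LD3 A, 3 reads stood for 26.9, 28.5 and 23.4 CPM. The PETC levels there rest on a few reads, and their order is not resolved. The plastocyanin gene PETE2 (AT1G20340) overlapped in all comparisons, between 115 and 368 CPM.

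RBCS genes took 0.0313%, 0.0237% and 0.0304% of reads at LD0, 0.0539%, 0.0242% and 0.00980% at LD1 and 0.0539%, 0.0289% and 0.000601% at LD3. In A and B the LD3 share was above LD0, and in C it was 50.7-fold lower, on 666 reads in LD0 C and 67 in the deeper LD3 C. The exact 95% binomial interval for LD3 C, which covers counting error only, was 0.000466% to 0.000763%. RBCS1A (AT1G67090), the most abundant of the 4 by reads, had 215, 161 and 197 CPM at LD0, 316, 240 and 77.9 CPM at LD1 and 359, 211 and 6.52 CPM at LD3. RCA (AT2G39730), which encodes the activase that keeps Rubisco active, had 17.9, 38.0 and 51.2 CPM at LD0, 39.5, 23.5 and 11.1 CPM at LD1 and 148, 38.1 and 3.60 CPM at LD3. Its LD3 libraries held both the highest and the lowest level, and the lowest, in LD3 C, was close to LD1 C, with exact 95% intervals of the read share of 0.000196% to 0.000405% and 0.000227% to 0.00163%. Fitted over all libraries, the 3 tested RBCS genes had log2 differences below 0 in each comparison, with medians of −0.90, −2.53 and −1.36 for LD1 against LD0, LD3 against LD0 and LD3 against LD1. None of them passed. In A and B the family share, a sum over 4 genes, was higher in LD1 and in LD3 than in LD0, though only slightly in LD1 B. Between LD3 and LD1 that share was level in A, at 0.0539% in both, and higher in LD3 in B.

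In LD3 C, the deepest library, 6 genes had 0 reads: LHCB1.4, LHCB2.1, LHCB2.2, PSBO2, RBCS1B and RBCS2B. The same genes had 28, 34, 100, 97, 103 and 18 reads in LD0 C, from fewer reads in all. Against the limit of 3 reads that a count of 0 allows, the observed share of reads in LD0 C was 30.6-fold higher for RBCS2B and 175-fold higher for RBCS1B. These ratios leave out the counting error of LD0 C. They also take detection to follow depth, while LD3 C had reads on fewer loci (15587) than LD0 C (16900) or LD3 B (17340). A count of 0 in LD3 C is therefore not a well-measured absence. LD3 B, of the same group, had between 8 and 21 reads for each of them. Whether reads went to another gene of the same family was not tested.

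By edgeR's quasi-likelihood test with Benjamini-Hochberg adjustment at 0.05, 0 of 41 genes passed in the comparisons of LD1 with LD0, LD3 with LD0 and LD3 with LD1, where 0.0%, 0.0% and 0.0% of all 9300 tested loci passed. In the joint test of any change over the 3 groups 0 passed, beside 0.0108% of all loci. An unadjusted p under 0.05 was reached by 4, 2 and 1 genes in the 3 comparisons and 2 in the joint test, beside 6.37%, 7.92%, 4.08% and 5.74% of all loci. DESeq2 also called 0 genes in each, beside 0.344%, 3.2%, 0.0968% and 0.376% of loci. Limma-voom called 0, 3 and 0, the 3 being LHCB1.2, PSBP1 and PSBS between LD3 and LD0, beside 5.46% of loci in that comparison, and in the joint test it called 0 genes, beside 0.441% of loci. With no filter on low counts edgeR called PSBP1 between LD1 and LD0 (adjusted p = 0.0250) and between LD3 and LD0 (adjusted p = 0.00440), beside 0.459% and 1.57% of loci. It also called PSBP1 in the joint test, beside 1.86%, and 0 genes for LD3 against LD1, beside 0.798%.

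**Figure D3:**
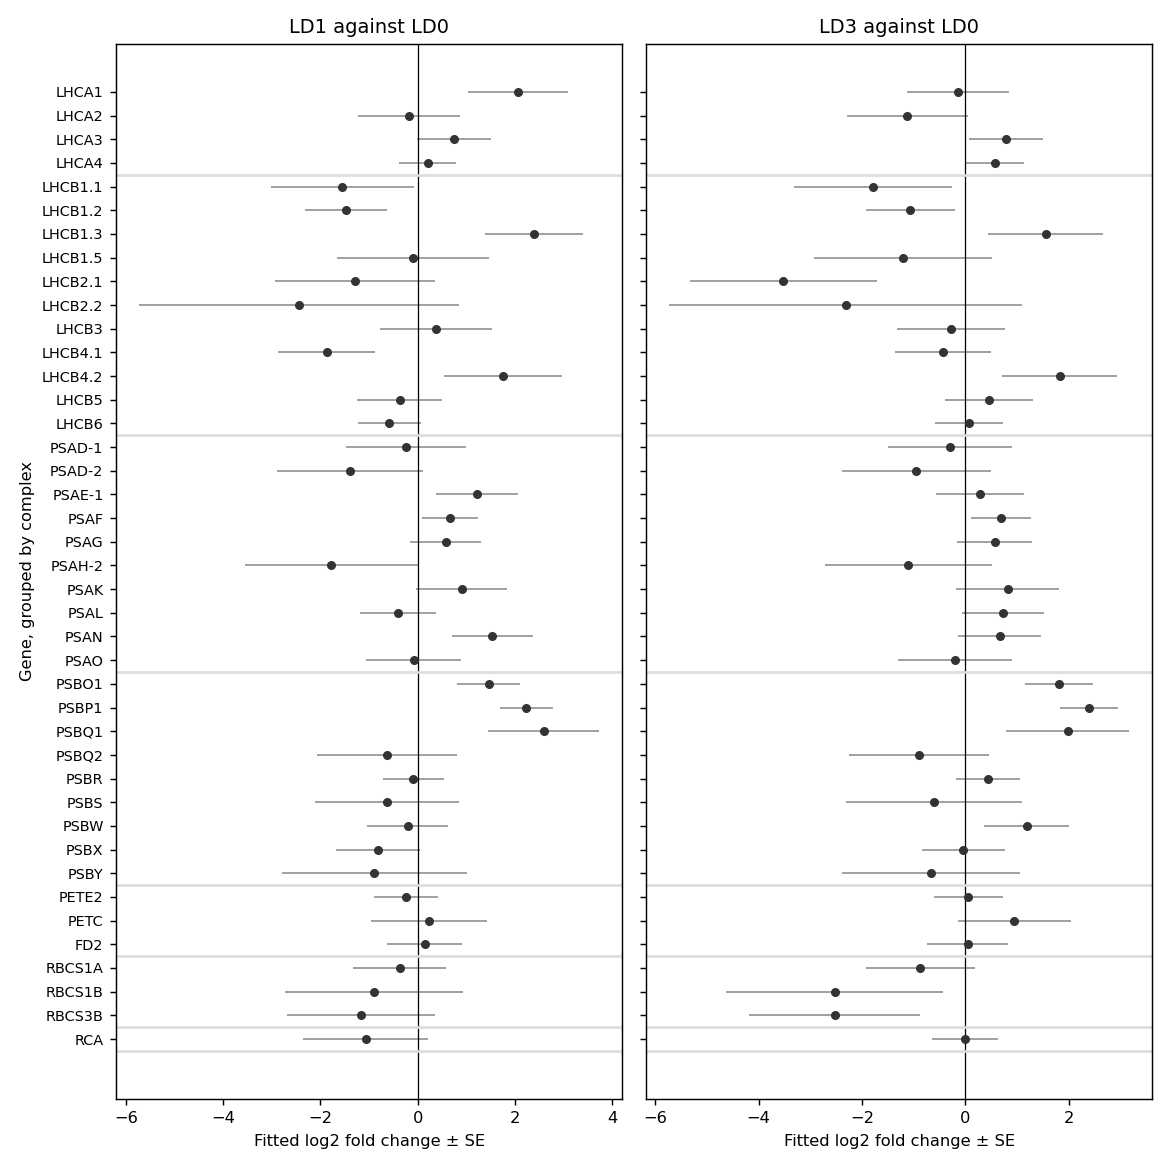
Fitted log2 fold change with its standard error for the 41 tested genes, LD1 against LD0 on the left and LD3 against LD0 on the right, with genes grouped by complex. Points lie on both sides of 0 in most groups, and PSBO1, PSBP1 and PSBQ1 lie right of 0 in both panels.

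Directions were divided. Between LD1 and LD0, 16 genes had a positive and 25 a negative fitted difference, with a median log2 difference of −0.21 beside −0.06 over all loci. Between LD3 and LD0 the division was 20 to 21, with a median of −0.00 beside +0.09, and between LD3 and LD1 it was 22 to 19, with +0.02 beside +0.08. The median SE of a single gene was 0.995, 0.994 and 1.00 on the log2 scale. Medians depended on single libraries. Without LD0 C the LD1 against LD0 median was +0.70, and without LD3 C the LD3 against LD0 median was +0.57, where without LD3 B it was −0.37. The 3 comparisons share groups, so they are not independent of each other.

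Between LD3 and LD0, 3 of 41 genes were higher in all LD3 libraries, namely LHCB4.2, PSBO1 and PETC, beside 7.55% of all loci, and LHCB2.1 was lower, beside 5.18%. Between LD3 and LD1, LHCB5, PSAL, PSBR and PSBW were higher and none was lower, beside 7.2% and 1.96%. Between LD1 and LD0 no gene was without overlap in either direction, beside 4.3% and 4.44%. LHCB5, PSBR and PETC are named for this result after their values were seen. These orders leave out counting error. In LD0 A and B, LHCB4.2 had 3 and 0 reads and PSBO1 had 8 and 9.

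The picture differed between letters, and the ready-to-run preparation cannot be told apart from the letter C. Between LD3 and LD0, 29 of 41 genes were higher in A (70.7%, beside 48.1% of all loci) and 33 in B (80.5%, beside 60.0%), but 11 in C (26.8%, beside 52.0%). Median log2 differences were +0.87, +0.99 and −1.37 in A, B and C. Between LD1 and LD0, 31, 23 and 11 genes were higher in A, B and C, with medians of +1.23, +0.15 and −1.33. These were 75.6%, 56.1% and 26.8% of the 41, beside 46.2%, 61.5% and 39.9% of all loci with medians of 0.00, +0.38 and −0.62, so in B the share was below that of all loci. Genes in the same library share its depth and its preparation, so these counts describe 3 pairs of libraries and carry no test.

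Fitted on A and B alone, 28 of the 46 genes passed the filter on low counts. Between LD3 and LD0, 24 of the 28 had a positive difference (85.7%, beside 44.8% of the 2850 loci tested there), with a median of +0.60 beside −0.13. Of the 41 genes, 21 were higher in both LD3 than in both LD0 libraries of A and B, beside 24.8% of the 9300 loci, and LHCB1.2 and LHCB2.1 were lower, beside 13.9%. For LD1 against LD0 these counts were 10 and 2, beside 18.9% and 12.0%, and for LD3 against LD1 they were 12 and 2, beside 20.4% and 13.5%. Again no gene passed, with a smallest edgeR adjusted p of 0.607. The genes LHCB1.3, PSAK, PSBO1, PSBP1 and PSBW, 5 in number and all higher in LD3, had an unadjusted p under 0.05, beside 7.26% of loci. LHCB1.3 had the largest fitted log2 difference among these 5, +2.80 (SE 0.84, unadjusted p = 0.0181), and PSBP1 had +2.71 (SE 0.70, unadjusted p = 0.00948). At the same threshold there were 5 genes for LD1 against LD0, beside 4.49% of loci, and 0 for LD3 against LD1, beside 4.21%.

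In the filtered edgeR fit, preparation was the one term that called a photosynthesis gene. PSBP1 was higher in C than in A and B by a log2 difference of +4.75 (SE 0.45, edgeR adjusted p = 0.00315), in 3 of 3 groups, and it was the 1 gene of 41 to pass, beside 0.839% of all loci. Leaving out LD1 C ended that call (adjusted p = 0.102), and the difference was then +4.41. In LD1, where B and C were of nearly equal depth, PSBP1 stood at 98.9 and 5100 CPM. With every library thinned to 97153 reads, an alternative chosen after seeing the data, the difference was +4.07 (edgeR adjusted p = 0.00568). PSBP1 made up 0.536%, 1.06% and 13.1% of the reads on all 46 genes in LD0 A, B and C, 2.88%, 2.50% and 35.5% at LD1 and 3.29%, 3.94% and 38.4% at LD3. Without it the summed share was 0.341%, 0.383% and 0.553% at LD0, 0.786%, 0.324% and 0.583% at LD1 and 0.720%, 0.647% and 0.350% at LD3. In that sum LD3 C became the lowest of the LD3 libraries by a wider margin.

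**Figure D4:**
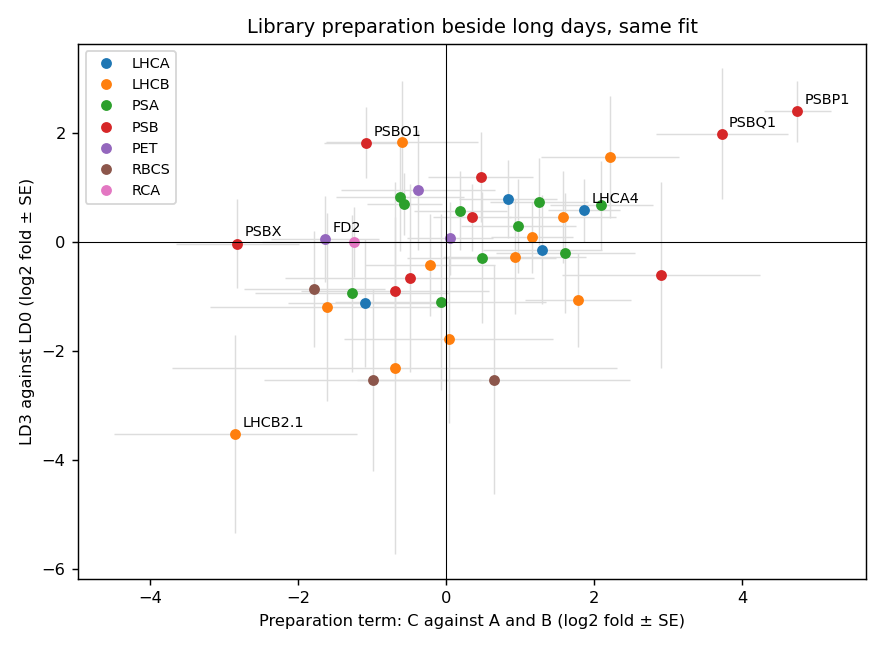
For each of the 41 tested genes, the fitted log2 difference of library preparation (C against A and B, horizontal axis) and of LD3 against LD0 (vertical axis), both with standard errors and from the same fit, with colour for the complex. PSBP1 stands alone at +4.75 on the preparation axis, and preparation differences span from −2.85 to +4.75.

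Another 7 genes had an unadjusted p under 0.05 for preparation, which with PSBP1 makes 8 of 41 beside 17.9% of all loci. PSBQ1 (+3.73), LHCB1.3 (+2.21), PSAN (+2.1), LHCA4 (+1.86) and LHCB1.2 (+1.78) were higher in C on the log2 scale, and PSBX (−2.83) and FD2 (−1.64) were lower. Per kilobase of coding sequence, FD2 was the most abundant of the 46 genes in A and B at 1254 CPM per kb and ranked 13th in C at 390.5 CPM per kb. PSBP1 ranked 20th in A and B at 164 CPM per kb and 1st in C at 3772 CPM per kb. PSAF, RBCS1A and PSAE-1 followed FD2 in A and B at 462, 461 and 461 CPM per kb, close enough that their order is not resolved, while PSAE-1 and PSAN followed PSBP1 in C at 1199 and 1181 CPM per kb.

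Promoters of the 46 genes were searched for motifs known from light-regulated and clock-regulated genes, on either strand in the 250 bases before the annotated start in RefSeq TAIR10.1. The G-box CACGTG was in 7 of 46 promoters (15.2%, beside 6.49% of all 27443 promoters) and the I-box GATAAG in 13 (28.3%, beside 12.3%). CCAATC was in 13 (28.3%, beside 10.2%), 9 of them LHCA or LHCB genes, and the CCA1 binding site AAAAATCT in 5 (10.9%, beside 6.69%). The promoters of LHCA4 and PSBQ2 are shown because they hold the most kinds of motif, marked in capitals. That of LHCA4 is chr3:17495034-17495283 and that of PSBQ2 is chr4:2673244-2673493, both on the minus strand and written 5′ to 3′ towards the gene.
LHCA4: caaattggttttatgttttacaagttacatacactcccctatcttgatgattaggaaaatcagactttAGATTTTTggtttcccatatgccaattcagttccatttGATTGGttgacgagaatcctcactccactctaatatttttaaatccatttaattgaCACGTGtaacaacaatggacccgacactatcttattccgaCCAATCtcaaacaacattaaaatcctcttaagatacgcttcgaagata
PSBQ2: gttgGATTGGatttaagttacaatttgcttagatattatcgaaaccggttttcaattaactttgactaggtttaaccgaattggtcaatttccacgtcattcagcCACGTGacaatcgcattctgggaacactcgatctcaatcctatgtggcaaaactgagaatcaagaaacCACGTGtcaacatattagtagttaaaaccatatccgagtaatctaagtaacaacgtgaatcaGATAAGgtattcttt

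In LHCA4 the G-box starts 88 bases before the gene start, between CCAATC matches that start at 144 and 48 bases, and the CCA1 site starts at 182 bases. PSBQ2 holds G-boxes at 145 and 77 bases, CCAATC at 246 bases and an I-box 15 bases before the start. PSBQ2 had no call, with 35.9, 9.50 and 86.9 CPM at LD0 and 23.4, 58.2 and 13.5 CPM at LD3, and its groups overlapped. A match describes the letters of the window and no binding was measured.

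Other genes of photosynthesis gave no call either. Of 14 chlorophyll synthesis genes 11 were tested, and 0 passed in each comparison. Their summed share was 0.0276%, 0.0237% and 0.0272% at LD0 and 0.0451%, 0.0478% and 0.0824% at LD3. As observed, every LD3 library was above every LD0 library. The shares of LD0 A, LD0 B and LD3 A rest on 30, 23 and 46 reads, and this order leaves out counting error. Between LD3 and LD0, 8 of 11 had positive differences (median +1.19), beside 4917 of all 9300 tested loci (median +0.09). CHLM, a methyltransferase of the pathway, had 35.9, 76.0 and 66.6 CPM at LD0 and 78.0, 81.7 and 293 CPM at LD3. In LD0 B and LD3 A, 3 reads stood for 28.5 and 23.4 CPM, so their order for CHLM is not resolved. As observed, CHLM was higher in LD3 without overlap (log2 difference +1.29, SE 1.00, edgeR unadjusted p = 0.224). Of all tested loci, 7.55% were likewise higher in LD3 without overlap. CHLI1, a subunit of magnesium chelatase, had 35.9, 0 and 104 CPM at LD0 and 31.2, 47.1 and 290 CPM at LD3, with overlap. Nuclear genes of other electron transport proteins and of the ATP synthase took 0.0230%, 0.0237% and 0.0199% at LD0. At LD3 they took 0.0343%, 0.0351% and 0.0445%, as observed also above every LD0 library. That order too leaves out counting error, with 25, 23 and 35 reads in LD0 A, LD0 B and LD3 A. Of the 9 differences of these genes 6 were positive, beside the same 4917 of 9300 loci, and 0 passed. PETM, a small cytochrome b6f subunit, and FD1, the second leaf ferredoxin, led that list in reads, with log2 differences of +1.62 (SE 0.97) and +0.99 (SE 1.04) between LD3 and LD0. Calvin cycle genes stayed between 0.0628% and 0.108% in all 9 libraries, and 6 of 13 tested differences between LD3 and LD0 were positive. Further lists went both ways between LD3 and LD0, with 0 passing in each. Photorespiration genes had 2 positive and 4 negative differences (median −1.75), and both of the 2 tested regulators were negative (median −1.22). Of 4 tested genes for other photosystem and antenna proteins, 3 were positive (median +0.47).

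Plastid-encoded partners of the same complexes had their lowest shares in LD3. The 8 listed loci took 0.0570%, 0.0226% and 0.0133% of reads at LD0, 0.0177%, 0.0205% and 0.0430% at LD1 and 0.00882%, 0.00347% and 0.000287% at LD3, so all LD3 libraries were below both other groups. All 4 tested loci had negative differences between LD3 and LD0, with a median of −3.47, and 0 passed. The locus with most reads, psbA, which encodes the D1 protein of photosystem II, had 56, 8 and 33 reads at LD0, 4, 24 and 52 at LD1 and 5, 28 and 8 at LD3. Its log2 difference was −3.56 (SE 1.43, unadjusted p = 0.0294, edgeR adjusted p = 0.585). Next came psaA, of the photosystem I reaction centre, with 0, 0 and 113 reads in LD0 and 0, 1 and 4 at LD3. The psaA locus was not among those tested.

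Markers of leaf cells were present in these dissected meristems. The 5 mesophyll markers outside the 46 genes, namely CA1, CA2, GLDP1, SBPASE and PRK, held 0.0441%, 0.00926% and 0.0577% of reads at LD0, 0.0876%, 0.00815% and 0.0225% at LD1 and 0.0863%, 0.0248% and 0.0108% at LD3. That share was above the share of the meristem markers in LD0 C (0.0553%) and LD3 A (0.0608%) and below it in the other libraries. CA1, a carbonic anhydrase typical of mesophyll, had 2, 0 and 595 reads at LD0, 64, 3 and 1 at LD1 and 13, 84 and 8 at LD3. Like the LHCB1 and RBCS families, this list was higher in LD3 than in LD0 for A and B and lower for C, where it fell to 0.186 of the LD0 C share. Vasculature markers were highest in LD0 B (0.0576%) and LD1 B (0.0586%) and at or below 0.00460% elsewhere. The part of these marker lists in the photosynthesis values was not tested.

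In the authors' deposited tables of pairwise comparisons, 1 of 46 genes had an unadjusted p under 0.05 between LD1 and LD0 (PSBO2, p = 0.00511, beside 6.78% of loci). In the authors' deposited table of LD3 against LD0 there was no such gene, with a smallest p of 0.0586 for PSAH-1, beside 7.51% of loci. PETE1, with p = 0.0323, was the 1 gene of the authors' deposited table of LD3 against LD1, beside 8.7% of loci. Benjamini-Hochberg adjustment of the authors' deposited p-values, computed here, left 0 loci in each.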

How the data were processed

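Reads per locus were measured in 9 libraries. The authors deposited raw counts in 16 columns, 1 or 2 per library, from reads matched with BLASTN 2.2.21 or 2.2.13, per the file headers. Columns of a library were summed and empty cells read as 0. No source used here gives the genome build, the use of strand or the treatment of multiple matches, so overlapping and antisense genes may share reads. The authors also deposited edgeR tables with log2 fold changes and unadjusted p-values, per the file headers and the submitters' processing notes.

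The test on counts was that of edgeR 4.0.16 under R 4.3.3 (quasi-likelihood F test, TMM factors, filterByExpr with a minimum count of 10, group plus preparation over all 9 libraries), which kept 9300 loci with 5 residual degrees of freedom and a biological coefficient of variation of 0.898. P-values were adjusted over all tested loci. Limma 3.58.1 (voom) and DESeq2 1.42.0 were alternatives. The script was tested on simulated data. Differences within letters used log2 CPM with a prior count of 2. Genes were named by a rule: per complex the gene with most reads, any called gene, and the 5 smallest p-values per comparison, with the 2 most abundant loci of other lists. The members, lists and rule were chosen with earlier results of these data known. Symbols and sequences were taken by locus tag from RefSeq TAIR10.1, which matched 46 of 46 genes and 23073 of 23338 loci, and no coordinates came from the authors' files. Depth ran from 97153 to 11145220 reads, and intervals and limits cover counting error only.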

Additional observations from a re-analysis of the deposited data

How the results depend on the processing

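The number of photosynthesis genes called was 0 in each comparison and in the joint test under most alternatives. With no filter on low counts it was 1 when LD1 was compared with LD0, 1 when LD3 was compared with LD0 and 1 in the joint test, each time PSBP1, and with limma-voom it was 3 between LD3 and LD0. No setting reversed the direction of PSBP1 or of the other genes with the 5 smallest p-values per comparison. LHCB1.2 and PSBS were not followed in this way. With libraries A and B alone the LD3 minus LD0 difference in the summed share was 0.344 percentage points against 0.207 over all libraries. Leaving out each library in turn gave 0 calls throughout, medians from −0.54 to 0.70 for LD1 against LD0, −0.37 to 0.57 for LD3 against LD0 and −0.19 to 0.44 for LD3 against LD1, and share differences from 0.115 to 0.401, 0.150 to 0.297 and −0.194 to 0.0919 percentage points. The share differences between LD3 and LD1 therefore changed sign between libraries, at +0.0919 without LD1 C and −0.194 without LD1 B, and the cause was not tested. RLE factors moved the all-loci median between LD3 and LD0 from +0.09 to −0.18 and that of the photosynthesis genes from −0.00 to −0.19, which leaves a difference from all loci of −0.02. Same-lettered libraries deviated together weakly (r from 0.073 to 0.352 over loci), so the letters were not taken as pairs. With the letters as a replicate block the calls stayed at 0 in each comparison, with medians of −0.20, 0.05 and 0.03. In the 3 A libraries and LD0 B, 3 reads stood for 19.8 to 28.5 CPM, so a count of 0 allows a level up to that there, against 5.03 CPM in LD1 B and 2.08 CPM in LD3 B.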
